A study of Homo sapiens with 21 samples.

Results

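The subject is the 6-hour transcript response of ZR-75-1 cells to 250 nM THZ1, measured on 4 of the 21 arrays of the series: the 2 arrays whose titles name ZR-75-1 with THZ1 at 250 nM and the 2 that name ZR-75-1 with DMSO. ZR-75-1 is an established human breast cancer line that expresses the oestrogen receptor (ER+). THZ1 is a covalent inhibitor of CDK7, and DMSO is its solvent. The other arrays used here are 2 of ZR-75-1 at 50 nM and the DMSO and 250 nM pairs of MDA-MB-468, a triple-negative line, and T47D, a second ER+ line, all exposed for 6 hours in serum-supplemented medium. All groups are plain cultures of a line, with no genetic change named in the labels. The labels do not say that replicates came from separate cultures, so a p-value here reflects array-to-array spread only, possibly of technical origin, and 2 arrays per group limit the precision.

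CDK7 is the kinase subunit within TFIIH, a general initiation factor that opens promoter DNA and phosphorylates the tail of RNA polymerase II as it leaves the promoter. CDK7 also activates the kinases that drive the cell cycle. In luminal breast cancer cells the oestrogen receptor works with a small set of transcription factors, among them FOXA1 and GATA3, and with cyclin D1, to keep up cell identity and growth. Transcripts with a short life fall soonest when synthesis stops, and transcripts with a long life fall late, so a 6-hour array reads both synthesis and decay.

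Values are probe set intensities, and 12644 of 18132 genes passed the filter on low values. A change is a difference of mean log2 intensity, 250 nM minus DMSO, given with its standard error (SE) from limma, and a gene rose or fell where limma's adjusted p was under 0.05. The 75th percentile of intensity was 146 and 140.3 on the 250 nM arrays, against 207 and 200.3 on the DMSO arrays, while replicate arrays correlated at r = 0.9945 and 0.9942 across genes, which are not independent replicates. The source field of these samples gives another line, MDA-MB-468, against their titles, so markers were checked. The 8 luminal markers lay above background on all 4 of these arrays, for example KRT8, a luminal keratin, at 14170 and 15020 at 250 nM, against 11690 and 13060 with DMSO. The same 8 lay above background on both MDA-MB-468 DMSO arrays too, so that count does not separate the lines. Their levels with DMSO differed to unlike degrees, FOXA1 averaging 3632 in ZR-75-1 and 277 in MDA-MB-468, and KRT19 14030 and 12620. The epidermal growth factor receptor gene EGFR read 31.7 and 31.3 at 250 nM, against 57.5 and 52.5 with DMSO, where MDA-MB-468 averaged 4267 with DMSO. KRT5, a basal keratin, averaged 43.1 with DMSO in ZR-75-1 and 3505 in MDA-MB-468. Of 9 immune markers, 6 lay above background on both 250 nM arrays and 5 on both DMSO arrays, with summed intensities of 349.9 and 346 at 250 nM, against 359 and 378 with DMSO. PTPRC, the pan-leukocyte marker, did not rise above background on any of these 4 arrays. Of 13 stromal and vascular markers, 6 and 7 lay above background, summing to 469 and 453 at 250 nM, against 482 and 471 with DMSO.

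Exposure to 250 nM THZ1 lowered transcripts across much of the measured transcriptome. Of the genes tested, 5406 fell (42.8%) and 1256 rose (9.93%). The falls were the larger changes. At least a 2-fold fall was called for 2285 genes (18.1%), 4-fold for 495 and 8-fold for 50, whereas 6 genes rose by 2-fold or more (0.0475%) and 47 by 1.5-fold. Both 250 nM arrays lay below both DMSO arrays for 6579 genes (52%) and above both for 2424 (19.2%). Lack of overlap was thus common over all genes, and naming called genes by the size of their limma statistic favours it. The median change was -0.18, and the middle 80% of genes lay between -1.44 and 0.26.

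The balance between falls and rises rested on how arrays were scaled to each other. As deposited, mean intensity was 332 and 326 at 250 nM, against 335 and 336 with DMSO. Per the labels, spike-in RNA was added by cell number before a fixed mass of total RNA was labelled, but 0 probe sets of the table carry ERCC names. Bacterial and artificial control transcripts on the array did not keep to that scale. The lys, TagJ and TagO control probe sets averaged 4922 and 4545 at 250 nM, against 2896 and 2865 with DMSO, a 1.64-fold higher level (log2 change 0.72 ± 0.06, limma adjusted p = 8.26e-08). The hybridisation controls bioB, bioC, bioD and cre read 2227 and 2268, against 2002 and 2116 (1.09-fold, limma adjusted p = 0.0938). At which step, and in what amount, these controls went in is not stated in the labels. Centring the arrays on lys, TagJ and TagO moved the median change by -0.72 and the split to 12284 lower and 6 higher genes. Centring each array on its own median moved it by 0.25, with 3998 lower and 3567 higher, and quantile normalization moved it by 0.26, with 3878 lower and 4113 higher. A gene with a change near 0 on the deposited scale therefore has no settled direction, and every rise below is a rise on that scale. With no ERCC-named probe set to read, a change in RNA per cell could not be measured in these bulk samples.

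**Figure D1:**
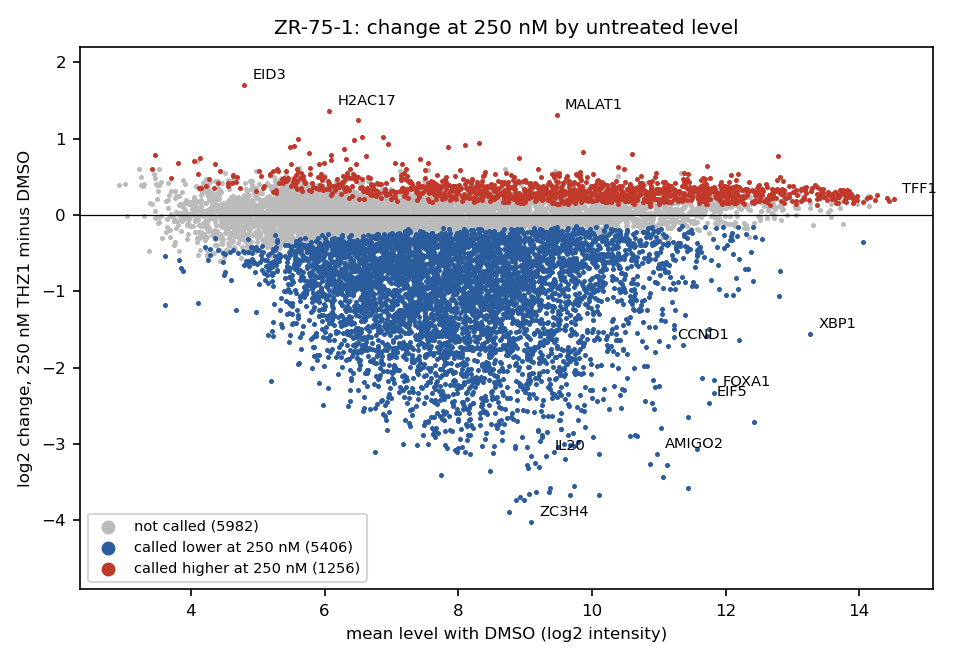
Each point is 1 of 12644 genes in ZR-75-1, with the mean log2 intensity of 2 DMSO arrays on the horizontal axis and the log2 change at 250 nM THZ1 minus DMSO on the vertical axis, as deposited. Falls reach -4.02 (ZC3H4), rises reach 1.70 (EID3), and the 6 rises of 2-fold or more become 0 when arrays are centred on control transcripts.

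The 16 deepest falls ran from -4.02 (ZC3H4) to -3.36 on the log2 scale. They were picked among called genes whose 250 nM arrays both lay below both DMSO arrays. ZC3H4, a zinc finger protein that restrains unproductive transcription, had intensities of 31.5 and 35.6 at 250 nM, against 587 and 505 with DMSO (log2 change -4.02 ± 0.12, limma adjusted p = 4.04e-13), a 16.2-fold fall. The sulphur transfer enzyme gene MOCS3 read 28.1 and 30.2 at 250 nM, against 453 and 414 with DMSO. Neither 250 nM array exceeded its background, so that fall was at least 14.5-fold (limma adjusted p = 2.8e-12). E2F8, an E2F family repressor of the cell cycle, read 36.8 and 39.8 at 250 nM, against 605 and 428 with DMSO (-3.73 ± 0.19). The lack of overlap between the 2 groups in these genes was set by that choice.

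MTFR2, a mitochondrial fission regulator, read 35.0 and 35.4 at 250 nM, against 482 and 453 with DMSO (-3.73 ± 0.09). DKK1, a secreted WNT inhibitor, read 67.0 and 61.5 at 250 nM, against 771 and 867 with DMSO (-3.67 ± 0.14). PPP1R15B, a subunit that directs the phosphatase acting on eIF2, read 84.4 and 89.5 at 250 nM, against 1137 and 1076 with DMSO (-3.67 ± 0.11). In all 3 the treated arrays lay far below the DMSO arrays. CASP8AP2, a caspase-8 associated protein that also supports histone gene expression, read 41.1 and 33.9 at 250 nM, against 489 and 479 with DMSO (-3.70 ± 0.17). FADD, the adaptor that links death receptors to caspase-8, read 75.5 and 70.8 at 250 nM, against 833 and 877 with DMSO (-3.55 ± 0.09). PTGER4, a prostaglandin E2 receptor, read 52.5 and 53.2 at 250 nM, against 652 and 661 with DMSO (-3.63 ± 0.10). Other falls picked by the same rule were those of the polarity gene PARD6B (-3.58 ± 0.12), the centrosomal protein gene CEP350 (-3.58 ± 0.08), ZBED5 (-3.65 ± 0.10), the kinase gene PDIK1L (-3.63 ± 0.14), ZNF217 (-3.43 ± 0.12) and ZNF7 (-3.36 ± 0.12). ZNF772 fell at least 7.16-fold, since neither treated array exceeded its background.

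The largest rises, picked among called genes whose 250 nM arrays both lay above both DMSO arrays, were small beside these falls. EID3, a SMC5/6 complex subunit, read 108 and 75.7 at 250 nM, against 27.0 and 28.5 with DMSO (1.70 ± 0.31, limma adjusted p = 0.000179). MALAT1, an abundant nuclear long noncoding RNA, read 1847 and 1685 at 250 nM, against 667 and 758 with DMSO (1.31 ± 0.16), although 1 of its 2 other probe sets was called lower. Histone genes made up 4 of the 12 largest rises. H2AC17, a replication-dependent H2A gene, read 187 and 158 at 250 nM, against 62.9 and 71.1 with DMSO (1.36 ± 0.13). H2BC8 (1.24 ± 0.13), H2AC8 (1.02 ± 0.10) and H2BC15 (0.99 ± 0.15) followed. Transcripts of this histone class normally end without a poly(A) tail, and near-identical copies can share a probe set, so a single gene's value is uncertain. The remaining large rises were TNNC2, a fast muscle troponin (1.02 ± 0.18), ANKRD10 (0.98 ± 0.12), OSMR, the oncostatin M receptor (0.95 ± 0.06), RPS2P32 (0.93 ± 0.28), DMKN (0.92 ± 0.10) and the small nucleolar RNA SNORA65 (0.90 ± 0.16). The remaining probe sets were called lower for ANKRD10 (1 of 1) and OSMR (2 of 3). RPS2P32 resembles its parent gene RPS2, so its value is uncertain too.

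Promoters are shown for 4 genes that stand for the ends of the response: ZC3H4 (the deepest fall), FOXA1 (a luminal factor that fell), H2AC17 (the largest histone rise) and NDUFB8 (a respiratory chain gene that rose). Each is the 250 bases before the annotated start, written 5′ to 3′ on the gene's strand, from RefSeq on GRCh38.p14. Capitals mark the TATA box TATAAA, the CCAAT box CCAAT and the GC box GGGCGG, each searched on both strands. All 4 genes lie on the minus strand, at chr19:47113777-47114026, chr14:37595250-37595499, chr6:27893186-27893435 and chr10:100529924-100530173.
ZC3H4: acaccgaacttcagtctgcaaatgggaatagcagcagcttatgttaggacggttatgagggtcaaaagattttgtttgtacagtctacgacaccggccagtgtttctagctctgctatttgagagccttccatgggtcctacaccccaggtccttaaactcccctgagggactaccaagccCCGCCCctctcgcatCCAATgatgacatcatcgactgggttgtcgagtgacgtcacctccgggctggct
FOXA1: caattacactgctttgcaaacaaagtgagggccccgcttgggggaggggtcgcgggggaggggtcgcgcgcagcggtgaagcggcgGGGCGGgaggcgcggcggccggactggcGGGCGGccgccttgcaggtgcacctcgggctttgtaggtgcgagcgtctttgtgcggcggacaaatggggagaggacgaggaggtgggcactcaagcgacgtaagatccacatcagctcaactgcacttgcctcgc
H2AC17: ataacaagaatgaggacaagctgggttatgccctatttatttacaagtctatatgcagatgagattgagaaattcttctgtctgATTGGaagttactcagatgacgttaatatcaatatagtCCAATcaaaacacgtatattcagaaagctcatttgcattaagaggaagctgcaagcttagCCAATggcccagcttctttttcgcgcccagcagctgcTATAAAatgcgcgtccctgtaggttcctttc
NDUFB8: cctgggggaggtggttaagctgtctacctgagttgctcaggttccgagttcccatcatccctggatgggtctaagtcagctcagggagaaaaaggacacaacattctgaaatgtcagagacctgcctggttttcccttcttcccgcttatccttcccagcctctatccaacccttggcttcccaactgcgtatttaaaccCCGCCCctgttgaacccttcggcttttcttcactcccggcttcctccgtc

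The H2AC17 window held 1 TATA box and 3 CCAAT boxes and no GC box, with a GC content of 40.4%. ZC3H4 held 1 CCAAT box and 1 GC box (52.4% GC), FOXA1 2 GC boxes (67.2% GC) and NDUFB8 1 GC box (53.6% GC). Promoters were matched by symbol for 10319 of the genes tested. Genes that fell by at least 2-fold (1938 promoters) and genes that rose (1061 promoters) had the same median GC content of 64.8%, and genes not called (4707 promoters) 64.4%. A TATA box was in 5.01% of promoters of the strong falls, 6.31% of the rises, 7.07% of genes not called, 5.91% of genes tested and 11.1% of all 27305 promoters. All promoters include those of genes not tested. A GC box was in 68.4%, 68.3%, 63.4%, 66.5% and 42.3% of the same classes, and a CCAAT box in 36.9%, 36.9%, 33.6%, 35.1% and 33%. The ETS motif CCGGAAG was in 19% of the strong falls, 17.6% of the rises, 11.5% of genes not called, 15.1% of genes tested and 8.82% of all promoters. The AP-1 letters TGANTCA were in 3.56%, 2.36%, 4.82%, 3.92% and 6.6%. These shares describe letters in a window, and a base may belong to more than 1 motif.

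Luminal transcription factor genes fell together. Of 25 luminal transcription factor genes listed, 22 were on the array, 21 passed the filter on low values, and 21 of 21 fell and 0 rose, with a median log2 change of -1.45, beside 42.8% of all genes that fell. At least a 2-fold fall was called for 14. FOXA1, which opens chromatin for the oestrogen receptor, read 755 and 693 at 250 nM, against 3759 and 3505 with DMSO (-2.33 ± 0.08, limma adjusted p = 1.68e-12). GATA3, which specifies luminal cells, read 1527 and 1498 at 250 nM, against 4201 and 5289 with DMSO (-1.64 ± 0.09). XBP1, a secretory pathway regulator high in ER+ cells, read 3359 and 3297 at 250 nM, against 9469 and 10190 with DMSO (-1.56 ± 0.07). All 3 stayed well above background at 250 nM, and no array overlapped between groups. TFAP2C, an AP-2 factor of luminal cells, read 483 and 393 at 250 nM, against 2067 and 2035 with DMSO (-2.24 ± 0.09), and its relative TFAP2A 44.6 and 44.1 at 250 nM, against 286 and 286 with DMSO (-2.69 ± 0.09). ZNF703, a luminal B oncogene, changed by -2.21 ± 0.07.

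The receptor gene ESR1 itself fell less, with 277 and 211 at 250 nM, against 448 and 435 with DMSO (-0.87 ± 0.15, limma adjusted p = 0.000101), and none of its 3 other probe sets was called. The ETS factor gene SPDEF read 373 and 396 at 250 nM, against 698 and 682 with DMSO (-0.84 ± 0.09). PGR, the progesterone receptor, read 326 and 318 at 250 nM, against 459 and 399.8 with DMSO (-0.41 ± 0.13). KLF5 made the smallest fall of the list, with 73.9 and 67.5 at 250 nM, against 90.7 and 95.5 with DMSO (-0.40 ± 0.11). The groups did not overlap for any of these. Under the other scalings, 17 (median centring), 18 (quantile) and 21 (control transcripts) of the 21 fell and 0 rose.

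**Figure D2:**
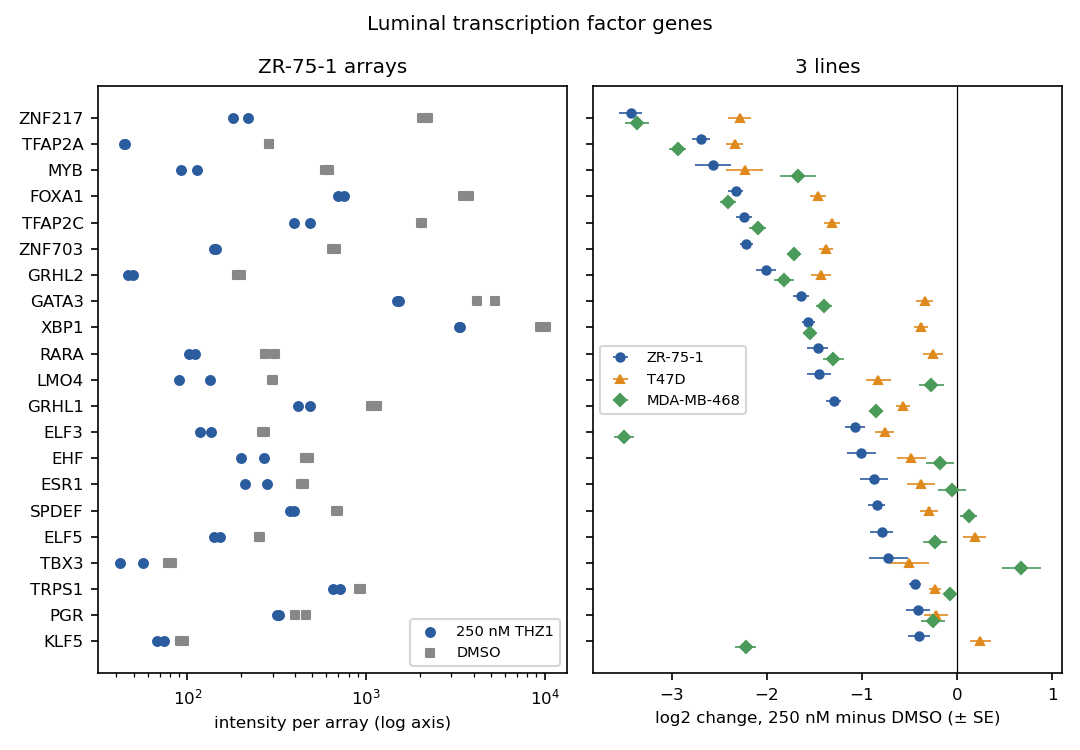
Left, intensity on each ZR-75-1 array (log axis) for 21 luminal transcription factor genes, 250 nM THZ1 as circles and DMSO as squares. Right, log2 change at 250 nM minus DMSO ± SE (n = 2 against 2 arrays) in ZR-75-1, T47D and MDA-MB-468. All 21 fell in ZR-75-1, between -3.43 for ZNF217 and -0.40 for KLF5.

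Oestrogen receptor target genes went both ways on the deposited scale. Of 28 tested, 12 fell (42.9%), near the 42.8% of all genes, and 7 rose (25%), beside 9.93% of all genes. With centring on control transcripts 27 fell and 0 rose. The list median of -0.08 turned positive under median centring (0.17) and quantile normalization (0.03). NRIP1, a corepressor induced by the receptor, read 178 and 135 at 250 nM, against 789 and 694 with DMSO (-2.26 ± 0.11). CCND1, which encodes cyclin D1, read 674 and 711 at 250 nM, against 2282 and 2249 with DMSO (-1.71 ± 0.06). The arylamine enzyme gene NAT1 (-1.94 ± 0.10), the secreted glycoprotein gene STC2 (-1.50 ± 0.07) and RERG (-1.06 ± 0.09) fell as well. By contrast TFF1, a secreted trefoil peptide, read 25480 and 28800 at 250 nM, against 23110 and 23850 with DMSO (0.21 ± 0.06, limma adjusted p = 0.0103), and that rise turned to a fall when arrays were centred on control transcripts. It was the brightest probe set on 3 of the 4 arrays, and saturation was not tested. GREB1, an early target, read 1925 and 1553 at 250 nM, against 2523 and 1764 with DMSO (-0.29 ± 0.16, limma adjusted p = 0.16), and its groups overlapped. Among receptor cofactors, 8 of 14 fell and 1 rose, with NCOA6 at -1.69 ± 0.09, NCOA7 at -1.60 ± 0.09 and the acetyltransferase genes CREBBP at -1.27 ± 0.10 and EP300 at -1.08 ± 0.11. Of luminal keratin and junction genes, 7 of 18 fell (38.9%) and 6 rose (33.3%) on the deposited scale, and 18 fell with centring on control transcripts. The splicing factor gene ESRP2 fell most, with 438 and 446 at 250 nM, against 1342 and 1405 with DMSO (-1.63 ± 0.06), while the desmosome genes DSP (-0.00 ± 0.10) and JUP (0.10 ± 0.06) were not called.

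Falls among growth signalling genes included adaptors and feedback regulators. Among receptors and adaptors, 10 of 20 fell and 0 rose, with a median log2 change of -0.34 that came to 0.01 with quantile normalization (8 lower and 5 higher). That share of falls was near the 42.8% of all genes. IRS1, the adaptor of the insulin and IGF1 receptors, read 88.4 and 79.6 at 250 nM, against 826 and 721 with DMSO (-3.20 ± 0.09, limma adjusted p = 2.75e-13). The RAS exchange factor SOS1 read 50.9 and 49.6 at 250 nM, against 166 and 199.7 with DMSO (-1.86 ± 0.09). Several receptor genes were not called. IGF1R read 343 and 289.9 at 250 nM, against 344 and 357 with DMSO (-0.15 ± 0.24, limma adjusted p = 0.636), ERBB2 was at 0.22 ± 0.13 and ERBB3 at -0.08 ± 0.07. In the PI3K pathway 11 of 19 fell and 0 rose, including the regulatory subunit PIK3R1, with 31.1 and 26.8 at 250 nM, against 222 and 159.7 with DMSO, where 1 of the 2 treated arrays was above background, PIK3R3 (-1.87 ± 0.08) and the kinase PDPK1 (-1.89 ± 0.08), while AKT2 was at -0.01 ± 0.05.

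Feedback regulators of the MAPK pathway fell in 15 of 18 cases, with 0 higher and a median of -1.18. Over all genes 42.8% fell and 9.93% rose. SPRED2, an inhibitor of RAF activation, read 88.4 and 76.3 at 250 nM, against 586 and 580.2 with DMSO (-2.83 ± 0.09). The phosphatase gene DUSP4 read 209 and 224 at 250 nM, against 1093 and 1208 with DMSO (-2.41 ± 0.07). ERRFI1, which restrains the EGF receptor, read 103 and 91.7 at 250 nM, against 370.5 and 374 with DMSO (-1.94 ± 0.09). The groups stood apart in all 3, which were named for a large limma statistic. Of 32 immediate early genes, 23 fell and 0 rose, with a median of -0.89. MYC, a growth regulator with a short-lived transcript, read 211 and 200.4 at 250 nM, against 968 and 1044 with DMSO (-2.29 ± 0.08). JUN, an AP-1 subunit, read 117 and 106 at 250 nM, against 541 and 494 with DMSO (-2.21 ± 0.13), and the kinase gene PLK2 170.5 and 145 at 250 nM, against 869 and 739 with DMSO (-2.35 ± 0.11). The AP-1 gene FOS read 117 and 107 at 250 nM, against 104 and 111 with DMSO, overlapping between groups (0.06 ± 0.12). In the WNT, NOTCH and TGF-beta list 29 of 41 fell and 2 rose, among them TCF7L2, a WNT effector (-2.58 ± 0.12), and HEY2, a NOTCH target (-1.83 ± 0.14). ZNRF3 fell at least 3.85-fold and SMAD6 at least 3.24-fold, since neither reached background at 250 nM.

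Among 9 tested anti-apoptotic genes 7 fell and 0 rose, with a median of -0.74. MCL1, a short-lived BCL2 family inhibitor, read 578 and 553 at 250 nM, against 1928 and 1999 with DMSO (-1.80 ± 0.09). The caspase inhibitor gene XIAP read 216 and 170.2 at 250 nM, against 657 and 689 with DMSO (-1.81 ± 0.15), and BIRC2 read 297 and 269.8 at 250 nM, against 709 and 760.4 with DMSO (-1.38 ± 0.06). These groups did not overlap. BCL2 read 73.2 and 68.2 at 250 nM, against 56.7 and 54.7 with DMSO (0.34 ± 0.16, limma adjusted p = 0.0935), so it was not called although both treated arrays lay above both DMSO arrays, and 2 of its 3 other probe sets were called lower. Among 24 pro-apoptotic genes 11 fell and 1 rose, a share of falls near the 42.8% of all genes, against 10 and 8 with quantile normalization. The death receptor gene TNFRSF10B read 159 and 154 at 250 nM, against 471 and 485 with DMSO (-1.61 ± 0.07), and BBC3, which encodes PUMA, read 167 and 153 at 250 nM, against 170.5 and 146 with DMSO (0.02 ± 0.24), overlapping between groups. Of 23 p53 regulators and targets, 15 fell and 2 rose. MDM2, the ligase that degrades p53, read 92.2 and 82.8 at 250 nM, against 284 and 296 with DMSO (-1.73 ± 0.08), with 2 of 5 other probe sets called in the opposite direction and 2 in the same.

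Transcripts of the drug's target complex were lowered in part on the deposited scale. CDK7, a kinase that THZ1 binds, read 232 and 215 at 250 nM, against 534 and 531 with DMSO (-1.25 ± 0.07, limma adjusted p = 4.52e-10). Its partners fell by less, with the cyclin gene CCNH at -0.32 ± 0.10 and the assembly factor gene MNAT1 at -0.26 ± 0.08, and both changes turned positive with quantile normalization. The TFIIH core subunit GTF2H1 read 205 and 241 at 250 nM, against 644 and 681 with DMSO (-1.57 ± 0.08), whereas the small subunit GTF2H5 read 600.3 and 583 at 250 nM, against 440.5 and 469 with DMSO (0.38 ± 0.06), a rise that turned to a fall with centring on control transcripts. In all, 5 of 8 genes of the complex fell and 1 rose, beside 42.8% and 9.93% of all genes. With median centring 2 fell and 2 rose, as they did with quantile normalization. Their median of -0.28 became -0.03 and 0.14 under these 2 scalings. Among other transcription kinases and cyclins, 8 of 14 fell (57.1%) and 0 rose, against 6 and 4 with quantile normalization. CDK9, the elongation kinase, read 159.9 and 166 at 250 nM, against 355 and 369 with DMSO (-1.15 ± 0.09). CDK12 changed by -0.76 ± 0.10 and CDK13 by -1.33 ± 0.19, and both phosphorylate the polymerase tail during elongation. CDK8 of the Mediator kinase module fell (-1.30 ± 0.08), and CDK10 was at -0.11 ± 0.07.

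Subunits of RNA polymerase II went both ways on the deposited scale, with 3 of 12 lower and 6 higher, and 12 were lower with centring on control transcripts. POLR2A, the catalytic subunit, read 338 and 309 at 250 nM, against 284 and 339 with DMSO, overlapping between groups (0.06 ± 0.09). POLR2D, part of the stalk, read 189.5 and 205 at 250 nM, against 675 and 659 with DMSO (-1.76 ± 0.06). POLR2F rose on the deposited scale (0.32 ± 0.05), as did POLR2J (0.28 ± 0.07), and both changes turned negative with centring on control transcripts. Mediator, which bridges activators and the polymerase, had 20 of 27 subunits lower and 2 higher, with a median of -0.92. MED13 read 463 and 402 at 250 nM, against 2013 and 1836 with DMSO (-2.16 ± 0.09), and MED17, in the Mediator head, read 90.4 and 85.4 at 250 nM, against 386 and 379 with DMSO (-2.12 ± 0.07). The groups were far apart in both. MED15 (-0.03 ± 0.15) and MED19 (-0.06 ± 0.08) were not called. Of 24 initiation factors 12 fell (50%, beside 42.8% of all genes) and 2 rose, against 8 and 7 with quantile normalization. GTF2E1, a TFIIE subunit, read 94.2 and 108 at 250 nM, against 834 and 797 with DMSO (-3.01 ± 0.12), and the TFIID subunit genes TAF5 (1 of 2 treated arrays above background) and TAF4 (-2.20 ± 0.09) fell.

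Lists for later steps of transcription held falls as well, beside 42.8% lower and 9.93% higher over all genes. Pausing and elongation factors fell in 21 of 30 cases (70%) and 1 rose. IWS1 read 123 and 124 at 250 nM, against 506 and 561 with DMSO (-2.11 ± 0.09), MEPCE, which caps the 7SK RNA, read 128 and 121 at 250 nM, against 438 and 462 with DMSO (-1.85 ± 0.06), and NELFCD was at 0.03 ± 0.06. In the Integrator and 3′ end list 22 of 35 fell and 1 rose, with INTS6 at 46.2 and 42.6 at 250 nM, against 350 and 328 with DMSO (-2.93 ± 0.09) and PCF11, a termination factor, at -2.61 ± 0.14. PAPOLA, the poly(A) polymerase, was at 0.02 ± 0.05. Splicing regulators fell in 18 of 34 cases (52.9%) and rose in 6 (17.6%), so both shares were above those of all genes. SRSF4 was at -1.25 ± 0.07 and HNRNPU was not called. The median of the splicing list turned from negative to 0.03 with median centring. Of 33 genes for mRNA decay and poly(A) tails 27 fell and 1 rose. PUM2, which represses target mRNAs, read 113 and 106 at 250 nM, against 684 and 675 with DMSO (-2.63 ± 0.07). Chromatin regulators fell in 41 of 57 cases and rose in 3. CHD1, a remodeller of transcribed chromatin, read 75.5 and 66.5 at 250 nM, against 439.9 and 444 with DMSO (-2.64 ± 0.11), and SETD2, which marks transcribed histone H3, read 176 and 192 at 250 nM, against 489 and 505 with DMSO (-1.43 ± 0.07). SMARCA4 was at 0.07 ± 0.07.

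Counts of cell cycle lists stand beside 42.8% lower and 9.93% higher over all genes. Of 18 E2F and RB family genes 13 fell and 0 rose, with a median of -1.39. E2F3, an activator of S phase genes, read 128 and 112 at 250 nM, against 538 and 536 with DMSO (-2.16 ± 0.09), while RB1 overlapped between groups (0.03 ± 0.20). In G1, 10 of 17 fell (58.8%) and 0 rose. The phosphatase gene CDC25A read 72.8 and 68.9 at 250 nM, against 364 and 384 with DMSO (-2.40 ± 0.07). CCNE2, a cyclin E, read 184 and 156 at 250 nM, against 734 and 843 with DMSO (-2.21 ± 0.11), and CDKN1B, the inhibitor p27, read 228 and 205 at 250 nM, against 766 and 862 with DMSO (-1.91 ± 0.13). Of 48 replication genes 28 fell (58.3%) and 2 rose (4.17%), against 19 and 10 with median centring and 22 and 10 with quantile normalization. The licensing factor CDC6 read 362 and 308 at 250 nM, against 1336 and 1351 with DMSO (-2.01 ± 0.09), and the helicase subunit MCM2 was at 0.01 ± 0.07. Homologous recombination and Fanconi anaemia genes fell in 23 of 29 cases, with 0 higher. PALB2, the partner of BRCA2, read 36.5 and 51.0 at 250 nM, against 224 and 284 with DMSO (-2.55 ± 0.14), and BRCA1 read 114 and 129.9 at 250 nM, against 234 and 203 with DMSO (-0.84 ± 0.10). Mitotic genes fell in 34 of 43 cases with 0 higher and a median of -0.58. CENPA, the centromeric histone, read 101 and 128 at 250 nM, against 910.5 and 872 with DMSO (-2.97 ± 0.11), WEE1, a kinase that delays mitosis, 75.3 and 66.7 at 250 nM, against 482 and 419.5 with DMSO (-2.67 ± 0.10), and AURKA, a mitotic kinase, 654 and 676 at 250 nM, against 1875 and 1818 with DMSO (-1.47 ± 0.06). MAD2L1 was at -0.01 ± 0.14. Centrosome and cilium genes fell in 26 of 46 cases (56.5%) and rose in 2, against 21 and 15 with quantile normalization.

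Stress and metabolic genes included some of the steepest falls. The share over all genes was 42.8% lower and 9.93% higher. Of 31 unfolded protein and amino acid stress genes 19 fell and 4 rose. DNAJB9, an endoplasmic reticulum chaperone cofactor, read 59.3 and 60.3 at 250 nM, against 613 and 528 with DMSO (-3.25 ± 0.09), and TRIB3 read 175 and 158 at 250 nM, against 645 and 632 with DMSO (-1.94 ± 0.07). Heat shock genes fell in 14 of 26 cases (53.8%) and rose in 4 (15.4%), against 9 and 11 with median centring. DNAJB1, a cytosolic HSP70 cofactor, read 99.2 and 111 at 250 nM, against 854 and 854 with DMSO (-3.02 ± 0.12), while HSPH1 was at 0.03 ± 0.06. Among hypoxia and NRF2 genes 14 of 25 fell (56%) and 4 rose (16%). VEGFA, the angiogenic factor, read 86.5 and 80.7 at 250 nM, against 330.2 and 325 with DMSO (-1.97 ± 0.09). NFE2L2, the NRF2 gene, was at -1.71 ± 0.07. CYP1B1, an aryl hydrocarbon receptor target, read 842 and 836 at 250 nM, against 5423 and 5606 with DMSO (-2.72 ± 0.06). Its relative CYP1A1 fell at least 5.23-fold, with neither 250 nM array above background. Circadian clock genes fell in 10 of 14 cases with 0 higher, PER2 reading 87.6 and 84.6 at 250 nM, against 353 and 387 with DMSO (-2.10 ± 0.09). NF-kB and cytokine genes fell in 13 of 24 cases (54.2%) with 0 higher, led by BCL3 (-2.04 ± 0.20) and NFKBIE (-1.80 ± 0.15). Interferon response genes fell in 4 of 21 cases and rose in 4, against 2 and 9 with quantile normalization. In sterol and fatty acid synthesis 10 of 26 fell (38.5%), near the share of all genes, and 1 rose, against 6 and 13 with median centring. INSIG1, which holds back sterol synthesis, read 285 and 199.7 at 250 nM, against 1085 and 1232 with DMSO (-2.28 ± 0.15), and FASN, the fatty acid synthase, was at 0.00 ± 0.08.

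Symbol-based families differed in how many members fell, beside 42.8% of all genes that fell and 9.93% that rose. ZNF-named zinc finger genes fell in 311 of 381 cases and rose in 2, with a median of -1.22 and 226 falls of at least 2-fold. ZNF84 read 38.4 and 42.0 at 250 nM, against 324 and 329.6 with DMSO (-3.02 ± 0.10), and ZNF146 read 360.1 and 331 at 250 nM, against 1873 and 1951 with DMSO (-2.47 ± 0.07). The ZNF genes took 0.376% and 0.374% of the summed signal of non-control probe sets at 250 nM, against 0.768% and 0.732% with DMSO. Kruppel-like factors fell in 11 of 13 cases with 0 higher, for example KLF4 (-1.89 ± 0.15). KLF3 fell at least 4.68-fold, with 1 of 3 other probe sets called higher. HOX genes fell in 7 of 17 cases (41.2%), near the share of all genes, with 0 higher (5 and 4 with quantile normalization). HOXC6 read 179 and 168 at 250 nM, against 524 and 529 with DMSO (-1.60 ± 0.08). F-box genes fell in 27 of 48 cases with 0 higher, against 22 and 13 with quantile normalization. Solute carriers fell in 100 of 239 cases (41.8%), near the share of all genes, and rose in 16 (6.69%), against 56 and 80 with quantile normalization. The amino acid transporter gene SLC38A2 read 217 and 216 at 250 nM, against 1591 and 1599 with DMSO (-2.88 ± 0.07). Of 7 long noncoding RNA genes tested, 6 fell and 1 (MALAT1) rose. SNHG7, a snoRNA host gene, read 203 and 202 at 250 nM, against 856 and 856 with DMSO (-2.08 ± 0.06), and NORAD, a PUM2-binding RNA, read 463 and 375 at 250 nM, against 1553 and 1296 with DMSO (-1.77 ± 0.13).

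**Figure D3:**
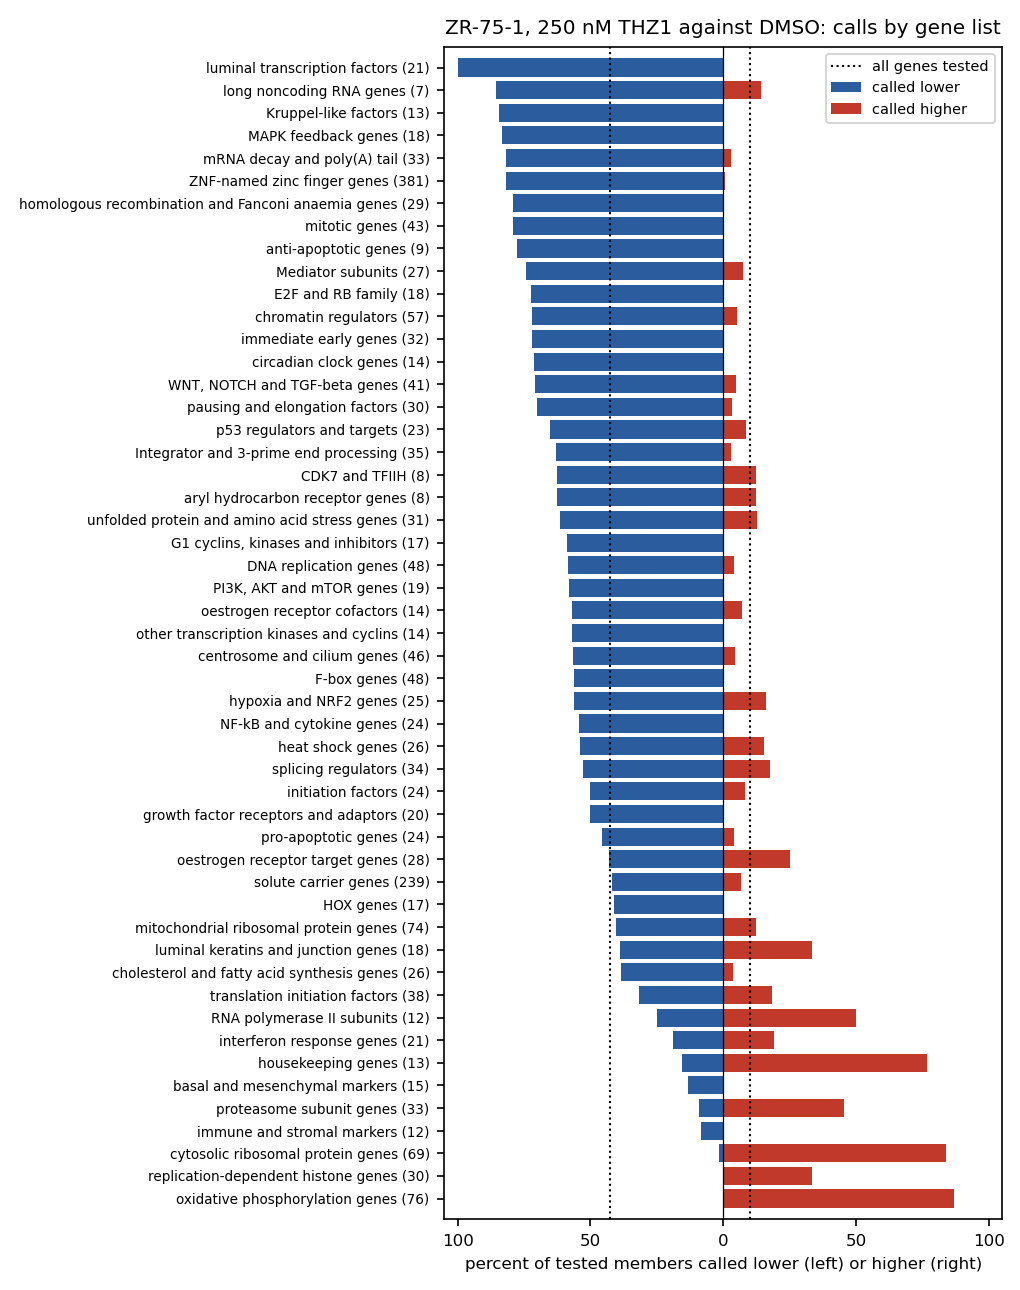
For each of 51 gene lists (tested members in brackets), bars give the percent of members called lower (left) and higher (right) in ZR-75-1 at 250 nM THZ1 against DMSO, on the deposited scale. Dotted lines give the shares over all 12644 genes, 42.8% lower and 9.93% higher. The medians of oxidative phosphorylation, ribosomal protein, housekeeping, proteasome and histone genes were positive on this scale and negative when arrays were centred on control transcripts.

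Genes for energy metabolism and the ribosome stood at the other end. On the deposited scale 66 of 76 oxidative phosphorylation genes rose and 0 fell (median 0.31), but centring on control transcripts gave 0 higher and 74 lower (median -0.40), and quantile normalization gave 52 higher and 1 lower. NDUFB8, a complex I subunit, read 2323 and 2193 at 250 nM, against 1572 and 1696 with DMSO (0.47 ± 0.05, limma adjusted p = 1.74e-06), and ATP5MK, an ATP synthase subunit, read 6088 and 6360 at 250 nM, against 4477 and 4615 with DMSO (0.45 ± 0.05). Both had no overlap between groups. Of 69 cytosolic ribosomal protein genes 58 rose and 1 fell (median 0.26), against 8 higher and 1 lower with quantile normalization and 0 higher and 68 lower with centring on control transcripts. RPS15 read 13390 and 14280 at 250 nM, against 10810 and 11130 with DMSO (0.33 ± 0.05). The exception was RPL7L1, with 1375 and 1241 at 250 nM, against 1898 and 1820 with DMSO (-0.51 ± 0.06). These genes took 9.74% and 10.4% of the summed signal at 250 nM, against 7.94% and 8.58% with DMSO. Oxidative phosphorylation genes took 3.38% and 3.41%, against 2.66% and 2.7%. Mitochondrial ribosomal protein genes differed, with 30 of 74 lower (40.5%) and 9 higher (12.2%), near the 42.8% and 9.93% of all genes. With median centring these counts were 16 and 29. MRPS30 read 908 and 856 at 250 nM, against 2380 and 2405 with DMSO (-1.44 ± 0.08).

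Over all genes 9.93% rose and 42.8% fell. Proteasome subunit genes rose in 15 of 33 cases and fell in 3, replication-dependent histone genes in 10 of 30 and 0, and housekeeping genes in 10 of 13 and 2. All 3 medians turned negative with centring on control transcripts (-0.58, -0.46 and -0.45). PSMA7, a proteasome core subunit, changed by 0.30 ± 0.06 and PSMD5, an assembly chaperone, by -0.96 ± 0.08. ACTB, often used as a reference gene, read 7653 and 7880 at 250 nM, against 6240 and 6822 with DMSO (0.25 ± 0.05), while TBP, the TATA-binding protein gene, read 66.6 and 51.4 at 250 nM, against 155 and 152 with DMSO (-1.39 ± 0.18). Translation initiation factors fell in 12 of 38 cases (31.6%) and rose in 7 (18.4%), against 4 and 20 with median centring. Among them EIF5 read 635 and 616 at 250 nM, against 3145 and 3752 with DMSO (-2.46 ± 0.08). Over the 51 lists, the median changed sign for 10 lists with median centring, 12 with quantile normalization and 7 with control transcripts.

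**Figure D4:**
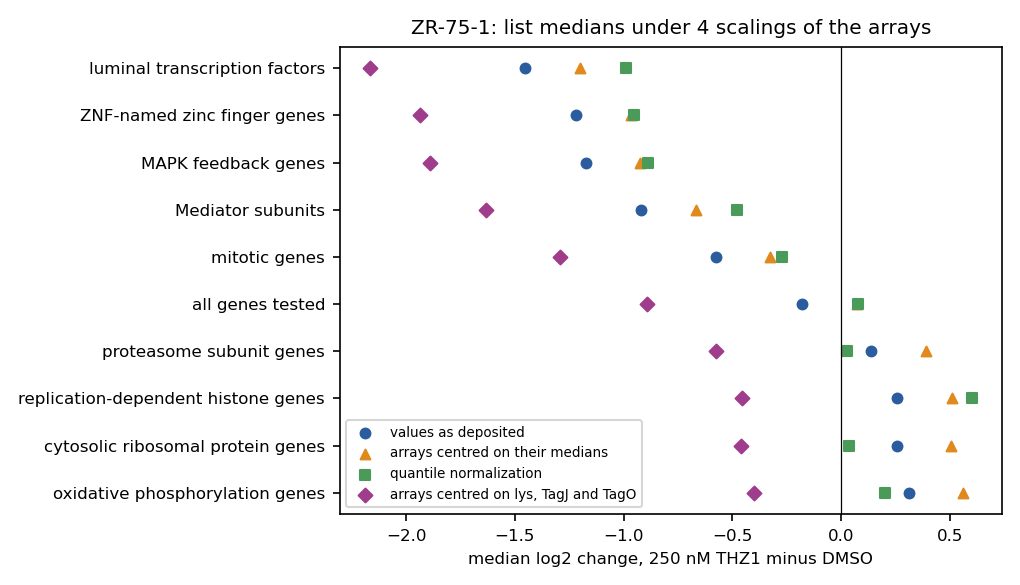
Median log2 change, 250 nM THZ1 minus DMSO, of 9 gene lists and of all genes tested in ZR-75-1 under 4 scalings of the arrays. The luminal factor median lies between -2.17 and -0.99 in all 4, whereas the oxidative phosphorylation median is 0.31 as deposited and -0.40 after centring on control transcripts.

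The response also varied with the untreated level of a gene. Genes were split into 4 level classes of 3161 by their mean DMSO level in the other 2 lines, which share no arrays with this comparison. From the lowest to the highest class, 19.8%, 48.8%, 61.2% and 41.3% fell and 2.88%, 5.06%, 7.02% and 24.8% rose. The highest class held 783 of the 1256 rises, and the lowest class is the one nearest to background.

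More genes were called between 50 and 250 nM than between DMSO and 50 nM. Between these doses 5277 genes fell (41.7%) and 838 rose (6.63%), 250 minus 50 nM. At 50 nM against DMSO 718 fell (5.68%) and 353 rose (2.79%), with 25 falls of at least 2-fold (0.198%). Both comparisons use arrays of the first one, so only each gene's own values are set side by side. The luminal factor genes had 0 lower and 1 higher of 21 at 50 nM. ZNF217 read 2229 and 2047 with DMSO, 2242 and 2118 at 50 nM and 219 and 179 at 250 nM, with overlap between DMSO and 50 nM, and the change from 50 to 250 nM was -3.46 ± 0.12 (limma adjusted p = 3.29e-12). CEP350 read 678 and 654 with DMSO, 734 and 680.1 at 50 nM and 56.7 and 54.9 at 250 nM (-3.66 ± 0.08). PPP1R15B read 1137 and 1076 with DMSO, 1042 and 809 at 50 nM and 84.4 and 89.5 at 250 nM (-3.40 ± 0.11). None of these 3 was called at 50 nM against DMSO. PTGER4 (-3.42 ± 0.10), PDIK1L (-3.40 ± 0.14) and PARD6B (-3.29 ± 0.12) complete the 6 largest falls between the doses.

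Others had already moved at 50 nM. CYP1B1 read 5423 and 5606 with DMSO, 1890 and 1742 at 50 nM and 842 and 836 at 250 nM, a change of -1.60 ± 0.06 at 50 nM (limma adjusted p = 2.05e-10). INTS6 read 350 and 328 with DMSO, 119 and 114 at 50 nM and 46.2 and 42.6 at 250 nM (-1.54 ± 0.09 at 50 nM). TUBD1, a centrosomal tubulin, changed by -1.53 ± 0.10 at 50 nM and -2.56 ± 0.10 at 250 nM. Of 29 recombination and Fanconi anaemia genes 10 fell and 1 rose at 50 nM. The probe set used for OSMR rose at 50 nM too, reading 319.9 and 317 with DMSO, 695 and 705 at 50 nM and 594 and 632 at 250 nM (1.14 ± 0.06 at 50 nM, limma adjusted p = 5.35e-08). With the mean of its probe sets the OSMR change at 250 nM was -0.327, and its other probe sets were not compared at 50 nM.

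HEXIM1, CDK12, PPM1D and MED26 were higher at 50 nM and lower at 250 nM, each against DMSO. HEXIM1, which holds the elongation kinase inactive, read 821 and 727 with DMSO, 1287 and 1086 at 50 nM and 278 and 268 at 250 nM. It rose at 50 nM (0.61 ± 0.10, limma adjusted p = 0.00182) and fell at 250 nM (-1.50 ± 0.10), although 1 of its 4 other probe sets was called in the opposite direction at 250 nM. CDK12 read 248 and 232 with DMSO, 349 and 329.5 at 50 nM and 136 and 147 at 250 nM, again higher at 50 nM (0.50 ± 0.10) and lower at 250 nM (-0.76 ± 0.10). PPM1D, a p53-induced phosphatase, read 1849 and 1779 with DMSO, 2467 and 2330 at 50 nM and 884 and 659 at 250 nM, with 0.40 ± 0.11 at 50 nM (limma adjusted p = 0.0351). MED26 read 565 and 620 with DMSO, 804 and 711 at 50 nM and 208 and 199.5 at 250 nM, with 0.35 ± 0.09 at 50 nM (limma adjusted p = 0.017). POLR2A rose at 50 nM (0.60 ± 0.09, limma adjusted p = 0.000832), reading 284 and 339 with DMSO, 503 and 437 at 50 nM and 338 and 309 at 250 nM. Rises between 50 and 250 nM were led by H2AC17 (1.21 ± 0.13), H2BC8 (1.11 ± 0.13), TNNC2 (1.12 ± 0.18), H2BC15 (0.90 ± 0.15), SNORA65 (0.88 ± 0.16) and GLYAT (0.91 ± 0.16).

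**Figure D5:**
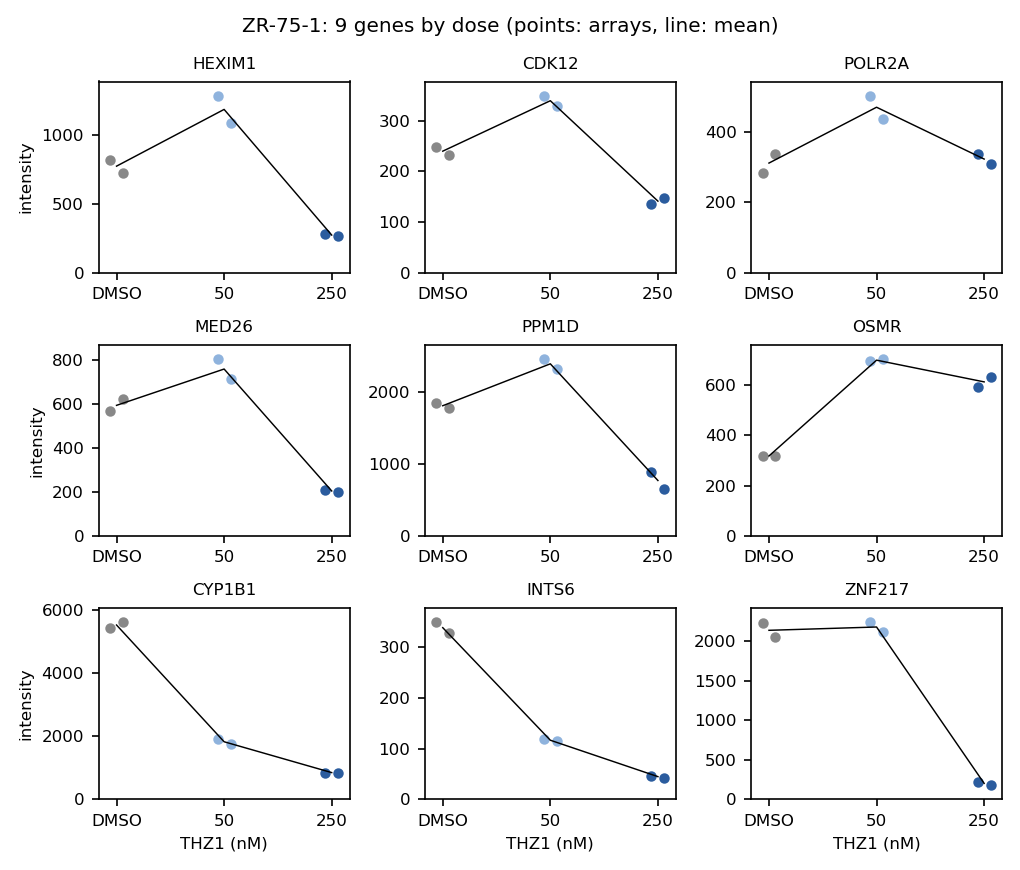
Intensity (linear axis from 0) of 9 genes in ZR-75-1 with DMSO, 50 and 250 nM THZ1. Points are single arrays, 2 per dose, and lines join the means. HEXIM1, CDK12, MED26 and PPM1D peak at 50 nM and are lowest at 250 nM, CYP1B1 and INTS6 fall at each step, and ZNF217 falls between 50 and 250 nM. The probe set used for OSMR is higher at both doses, but the mean of its probe sets is lower at 250 nM.

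The last comparison asked where the ZR-75-1 response differed from the mean response of MDA-MB-468 and T47D, 2 lines with their own arrays. The change was more negative in ZR-75-1 for 2807 genes (22.2%) and more positive for 298 (2.36%), with a median difference of -0.12. Of the 5406 genes that fell in ZR-75-1, 2914 (53.9%) fell in all 3 lines, and 1065 (19.7%) were called lower in ZR-75-1 and in neither other line. The difference between lines was itself called for 608 of those 1065. Falls shared with MDA-MB-468 numbered 3471 (64.2% of those in ZR-75-1 and 90.5% of those in MDA-MB-468), and with T47D 3784 (70% and 88.9%). Over all genes tested, 30.3% fell and 9.54% rose in MDA-MB-468, and 33.7% and 9.62% in T47D. Of the 1256 rises, 455 (36.2%) were called in all 3 lines. Under centring on array medians the more negative differences numbered 1823, and under centring on control transcripts 4434.

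Of the 8 most negative differences, 6 were in genes with 0 arrays above background in at least 1 group of the other lines, so their size is not a comparison of measured responses. IL20, an IL-10 family cytokine, read 67.8 and 75.6 at 250 nM, against 664 and 613 with DMSO in ZR-75-1, and lay above background on 1 of the 4 MDA-MB-468 arrays and 0 of the 4 T47D arrays. ST8SIA4, a sialyltransferase gene, was above background on 0 arrays of either line, and ZNF114, BHLHE41, LRATD1 and UBE2QL1 were each above background on 0 arrays of at least 1 group of the other lines. EGR3, an early growth response factor, read 70.8 and 70.1 at 250 nM, against 367 and 407 with DMSO in ZR-75-1, and 1 of the 2 MDA-MB-468 DMSO arrays was above background. IFRD1 lay above background in all 3 untreated lines, reading 56.1 and 48.5 at 250 nM, against 381 and 424 with DMSO in ZR-75-1, and 1875 against 1947 in MDA-MB-468 and 72.2 against 195 in T47D (means, 250 nM against DMSO) (-2.20 ± 0.11). Of the 2807 more negative differences, 2696 were in genes above background on both DMSO arrays of all 3 lines. Chosen among those after values were seen, MAT2A, the enzyme gene for S-adenosylmethionine, averaged 815 at 250 nM and 3657 with DMSO in ZR-75-1, and 2131 against 3807 in MDA-MB-468 and 2460 against 2952 in T47D (difference -1.61 ± 0.08, limma adjusted p = 1.36e-08).

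The 8 most positive differences were FOXQ1, FAM200A, ZNF175, MAML2, ZNF518B, YOD1, RNF222 and ZFP82. None of the 8 exceeded background on any ZR-75-1 array at 250 nM or with DMSO, so no response could be measured there and no fold is given. FOXQ1, for example, read 23.8 and 26.1 at 250 nM, against 25.2 and 17.1 with DMSO in ZR-75-1, and 102 against 1868 in MDA-MB-468 and 27.2 against 24.9 in T47D (means, 250 nM against DMSO). In total 55 of the 298 positive differences were in genes not above background in either ZR-75-1 group. MYC fell in all 3 lines, by -2.29 ± 0.08 in ZR-75-1, -4.23 ± 0.08 in MDA-MB-468 and -2.18 ± 0.08 in T47D on the log2 scale, so that its fall in ZR-75-1 was smaller than the mean of the others (difference 0.92 ± 0.10, limma adjusted p = 9.08e-06). The same direction was found for JUN (0.79 ± 0.16) and CDKN1B (0.87 ± 0.16).

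Of the 21 luminal factor genes, 16 had a more negative and 2 a more positive change than the mean of the other lines, beside 22.2% and 2.36% of all genes, and the median difference was -0.61. The list fell in the other lines too, in 13 of 21 cases in MDA-MB-468 (median -1.40, against -1.45 in ZR-75-1) and 16 of 21 in T47D (median -0.50). GATA3 changed by -0.34 ± 0.09 in T47D and -1.40 ± 0.09 in MDA-MB-468, beside -1.64 ± 0.09 in ZR-75-1 (difference -0.77 ± 0.11, limma adjusted p = 6.13e-05). CCND1 changed by -0.26 ± 0.06 in T47D and -0.64 ± 0.06 in MDA-MB-468 (difference -1.26 ± 0.07, limma adjusted p = 4.18e-08). ESR1 differed by -0.65 ± 0.18 (limma adjusted p = 0.0145) and SPDEF by -0.76 ± 0.11. However, ESR1 averaged 30.9 with DMSO in MDA-MB-468, where array background was 27.6 and 23.5. Little fall could be read in that line, so the ESR1 difference is not a comparison of measured responses there. MDM2 differed by -0.94 ± 0.10 on the probe set used, and TNFRSF10B by -1.30 ± 0.08. The other MDM2 probe sets, called both ways at 250 nM in ZR-75-1, were not compared between lines. E2F8 fell in each line (-3.74 ± 0.19 and -3.66 ± 0.19 in MDA-MB-468 and T47D, difference -0.03 ± 0.24, limma adjusted p = 0.948). For IRS1 the changes were -3.12 ± 0.09 and -3.18 ± 0.09, with a difference of -0.05 ± 0.11 (limma adjusted p = 0.804). The control transcripts moved in the same comparison, with lys, TagJ and TagO 1.64-fold higher at 250 nM in ZR-75-1, 1.43-fold in MDA-MB-468 and 1.48-fold in T47D. In the same order, the poly(A) controls lys, dap, phe and thr were 1.51-fold, 1.15-fold and 1.24-fold higher, and 28S rRNA 2.33-fold, 1.36-fold and 1.15-fold. The part of these shifts in the difference between lines was not tested.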

How the data were processed

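Total RNA of established breast cancer lines was read on Affymetrix PrimeView arrays. The deposited values are probe set intensities on a linear scale, made by the authors with MAS5, per the submitters' processing notes. Intensities were floored at 1 and converted to log2, with no further scaling. Control probe sets were left out, 44988 of 49395 probe sets had 1 gene symbol, 1832 had several and 2473 other non-control probe sets had none, and each gene was read from its probe set with the highest mean over the 21 arrays. Genes were tested where the highest group mean reached an intensity of 57.4. limma 3.58.1 in R 4.3.3 (lmFit, eBayes with trend) fitted 9 group means to 18 arrays, with 9 residual degrees of freedom. P-values were two-sided and, for genes, Benjamini-Hochberg adjusted over all 12644 genes within each comparison. Other probe sets of a gene were called in a separate fit to 29078 probe sets, adjusted over these. Averages of control transcripts were added to the same probe sets, fitted with them and adjusted over that set. The fit was tested on simulated data. Background was the mean of 23 background probe sets on each array. A fold of a gene above background in one group alone is a bound, set on each array against the higher of the background and its own signal, a step chosen after the data were seen.

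The members and gene lists were chosen with earlier results of these data known. Genes named were the 16 most negative and 12 most positive called changes whose arrays did not overlap, up to 5 called and 2 least changed members of each list, a fixed set of regulators, the 8 largest differences between lines and the 6 largest between doses in each direction. The called list members were those with the largest limma statistic in size. Genes named outside that rule are the markers, MAT2A and those described as moving at 50 nM, chosen after their values were seen. Alternatives were the scaling between arrays, the floor, the filter, the mean of probe sets, the ZR-75-1 arrays alone, a replicate block and each array left out in turn. The remaining line, with 1 array per dose, entered no test.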

Additional observations from a re-analysis of the deposited data

Results flagged for a closer look

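The response to 250 nM THZ1 differed between ZR-75-1 and the mean of MDA-MB-468 and T47D by limma's test of the difference itself, more negative in ZR-75-1 for 2807 genes and more positive for 298. The most negative differences, with SE, were BHLHE41 (-2.102 ± 0.19), EGR3 (-2.926 ± 0.22), IFRD1 (-2.202 ± 0.11), IL20 (-3.041 ± 0.23), LRATD1 (-2.124 ± 0.20), ST8SIA4 (-2.03 ± 0.30), UBE2QL1 (-2.082 ± 0.35) and ZNF114 (-2.079 ± 0.19). Of these, IFRD1 alone lay above background on every 250 nM and DMSO array of all 3 lines, so the other values set the ZR-75-1 fall against levels wholly or partly at background. The most positive were FAM200A (2.265 ± 0.29), FOXQ1 (2.299 ± 0.20), MAML2 (1.959 ± 0.17), RNF222 (1.761 ± 0.20), YOD1 (1.84 ± 0.13), ZFP82 (1.741 ± 0.19), ZNF175 (2.203 ± 0.22) and ZNF518B (1.911 ± 0.20), all genes not above background in ZR-75-1 in either group, so these values hold only the changes in the other lines. Among regulators fixed as named genes, the difference was called for ESR1 (-0.653 ± 0.18), FOXA1 (-0.394 ± 0.10), GATA3 (-0.772 ± 0.11), SPDEF (-0.758 ± 0.11), XBP1 (-0.597 ± 0.09), CCND1 (-1.26 ± 0.07), MYC (0.917 ± 0.10), CDK7 (-0.421 ± 0.09), CDK9 (-0.547 ± 0.11), BRCA1 (-0.441 ± 0.12), DKK1 (-1.148 ± 0.17), MDM2 (-0.942 ± 0.10) and ZC3H4 (-0.817 ± 0.15). With DMSO, ESR1 lay close to background in MDA-MB-468 (mean 30.9), so little fall could be read in that line. The MDM2 value rests on the probe set used, and other MDM2 probe sets were called both ways at 250 nM in ZR-75-1.

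Control probe sets outside the gene comparisons were higher at 250 nM than with DMSO in ZR-75-1. The fold was 1.51 for the poly(A) controls lys, dap, phe and thr, 1.64 for lys, TagJ and TagO, 1.37 for 18S rRNA and 2.33 for 28S rRNA. Their part in the gene changes was not tested.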

How the results depend on the processing

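Scaling decided the counts. For 250 nM against DMSO, rises numbered 3567 with median centring (22 of at least 2-fold), 4113 with quantile normalization (41 of at least 2-fold) and 6 with control transcripts (0 of at least 2-fold). Falls numbered 3998, 3878 and 12284 under these scalings, and falls of at least 2-fold 1459 with quantile normalization and 5462 with control transcripts. The mean of probe sets left 3 rises of at least 2-fold. For 250 against 50 nM, rises numbered 2929, 3753 and 1 under the 3 scalings, and falls 12472 with control transcripts. For the difference between lines, more negative changes numbered 1823 with median centring and 4434 with control transcripts, and more positive ones 827 with quantile normalization and 127 with control transcripts. Signs of log2 changes turned with control transcripts for ACTB (-0.464), ATP5MK (-0.262), BBC3 (-0.696), ERBB2 (-0.498), FASN (-0.714), FOS (-0.657), GLYAT (-0.134), GTF2H5 (-0.335), HSPH1 (-0.687), JUP (-0.613), MCM2 (-0.709), NDUFB8 (-0.248), NELFCD (-0.686), PAPOLA (-0.693), POLR2A (-0.659), POLR2F (-0.392), POLR2J (-0.436), PSMA7 (-0.418), RB1 (-0.689), RPS15 (-0.381), SMARCA4 (-0.65) and TFF1 (-0.509). They turned with quantile normalization for AKT2 (0.234), CCNH (0.047), CDK10 (0.357), ERBB3 (0.207), MED15 (0.48), MED19 (0.382) and MNAT1 (0.097), with median centring for AKT2 (0.243) and HNRNPU (0.246), and with the mean of probe sets for BCL2 (-0.791) and OSMR (-0.327). Why was not tested.

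Leaving out each array in turn gave 4909 to 5434 falls, 957 to 1279 rises, 2226 to 2391 falls and 6 to 10 rises of at least 2-fold, the highest without ZR-75-1 THZ1 250 nM replicate 2. It gave 4778 to 5308 falls and 619 to 871 rises between doses, and 2169 to 2834 and 223 to 338 differences between lines. With the replicate block, 5463 genes fell and 1325 rose, 5360 fell and 907 rose between doses, and 2912 and 346 differed between lines. Same-numbered arrays of ZR-75-1 deviated together at r = 0.17, 0.03 and -0.22, so the numbers did not pair them. Genes not above background in a group have a bound there, not a level.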
